A study of Mus musculus with 4 samples.

Results

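The circadian clock genes are 10 genes of the core transcriptional clock, *Arntl*, *Clock*, *Npas2*, *Per1*, *Per2*, *Per3*, *Cry1*, *Nr1d1*, *Nr1d2* and *Dbp*. They were chosen by gene symbol from the 19030 genes of the expression table, and all 10 were found, 1 row each. RNA was sequenced from ingWAT, the inguinal depot of white fat under the skin, of C57BL/6 mice aged 3 months and kept at 4°C, with 2 libraries of control (Ctrl) mice and 2 of *Oct3*-deficient mice. *Oct3* (gene symbol *Slc22a3*) encodes a transporter that takes up norepinephrine. The Ctrl mice carried *Oct3* flanked by loxP sites (Oct3 fl/fl), and in the deficient mice (cKO) the flanked gene was deleted by Cre driven from the *Adiponectin* promoter, so that the deletion is aimed at adipocytes and the other cells of the depot keep the gene. How many mice each library holds and at what time of day the tissue was taken are not given in the sources used here. The p-values therefore measure the spread between these 4 libraries, which may be technical.

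The mammalian clock is a feedback loop of transcription. Arntl (also called Bmal1) pairs with Clock, or with its relative Npas2, and the pair binds E-boxes to switch on the *Per* and *Cry* genes, whose proteins then block that pair. The same pair switches on *Nr1d1* and *Nr1d2*, which encode the repressors Rev-erb alpha and beta, and *Dbp*, which encodes an output factor that acts through D-boxes. Rev-erb proteins repress *Arntl* and *Npas2* through ROR elements (ROREs), at which ROR proteins activate, so that in most tissues, fat depots included, *Arntl* and *Npas2* peak at the opposite time of day to *Nr1d1*, *Dbp* and the *Per* genes. A shift in phase at the time of collection could move these 2 arms in opposite directions, and whether they moved so was the question put to the data. A single time of collection holds a level for each gene and no rhythm, so a shift in phase cannot be told from a change in level.

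Promoters were taken for 9 of the 10 genes, all but *Per2*, as 13 windows that run from 250 bases before to 50 bases after a RefSeq start site (GRCm38.p6). The 5 windows below are shown because each holds a match, in capitals, to one of the elements through which the loop acts. All are written 5′ to 3′ on the strand of the gene. *Arntl* is the window at chr7:113207261-113207560 (plus strand), with a RORE. *Nr1d1* is chr11:98775328-98775627 (minus strand), with the E-box variant CACGTT on the opposite strand. *Per1* is chr11:69098699-69098998 (plus strand), with the E-box CACGTG. *Per3* is chr4:151044616-151044915 (minus strand), with a pair of D-boxes, and *Cry1* is chr10:85185005-85185304 (minus strand), with an E-box and the E-box variant.
Arntl: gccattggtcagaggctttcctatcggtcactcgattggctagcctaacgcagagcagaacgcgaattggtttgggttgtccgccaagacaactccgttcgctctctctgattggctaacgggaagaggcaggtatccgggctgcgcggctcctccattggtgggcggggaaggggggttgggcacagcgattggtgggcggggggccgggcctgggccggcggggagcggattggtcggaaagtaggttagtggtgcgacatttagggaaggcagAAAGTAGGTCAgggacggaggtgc
Nr1d1: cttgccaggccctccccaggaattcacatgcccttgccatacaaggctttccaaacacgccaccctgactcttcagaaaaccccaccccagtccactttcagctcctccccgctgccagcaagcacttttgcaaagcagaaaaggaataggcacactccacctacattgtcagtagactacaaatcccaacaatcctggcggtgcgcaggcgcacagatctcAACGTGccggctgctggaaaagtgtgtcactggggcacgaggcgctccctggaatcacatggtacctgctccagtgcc
Per1: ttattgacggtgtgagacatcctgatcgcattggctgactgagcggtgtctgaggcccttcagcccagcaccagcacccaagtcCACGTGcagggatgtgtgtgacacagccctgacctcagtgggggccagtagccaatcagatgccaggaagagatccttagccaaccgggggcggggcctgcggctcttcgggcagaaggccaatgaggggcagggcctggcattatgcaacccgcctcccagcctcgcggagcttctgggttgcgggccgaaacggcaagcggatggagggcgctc
Per3: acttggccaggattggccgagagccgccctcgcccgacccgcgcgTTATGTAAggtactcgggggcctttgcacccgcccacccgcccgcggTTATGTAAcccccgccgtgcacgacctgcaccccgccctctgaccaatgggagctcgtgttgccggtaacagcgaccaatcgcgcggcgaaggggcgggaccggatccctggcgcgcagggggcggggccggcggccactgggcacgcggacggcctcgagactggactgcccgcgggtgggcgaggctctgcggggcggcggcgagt
Cry1: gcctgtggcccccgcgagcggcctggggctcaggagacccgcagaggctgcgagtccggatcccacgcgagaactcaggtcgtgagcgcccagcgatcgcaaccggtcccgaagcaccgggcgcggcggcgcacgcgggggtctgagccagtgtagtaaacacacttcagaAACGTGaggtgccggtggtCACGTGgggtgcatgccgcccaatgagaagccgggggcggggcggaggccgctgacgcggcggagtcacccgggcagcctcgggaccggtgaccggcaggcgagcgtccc

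Positions are counted from the start site as 1, with the base before it as -1. The RORE of *Arntl* lay at 27 to 37, within the transcribed part of the window, and a RORE occurred in 0.384% of all 32851 windows. The E-box CACGTG of *Per1* lay at -166 to -161 and that of *Cry1* at -60 to -55, against 7.15% of all windows with this motif. The variant CACGTT, read on either strand as CACGTT or AACGTG, lay at -28 to -23 in *Nr1d1* and at -79 to -74 in *Cry1* (4.68% of all windows). In *Per3* the D-box TTATGTAA lay at -205 to -198 and again at -158 to -151, and either form searched, TTATGTAA or TTACGTAA, occurred in 1.06% of all windows. The cAMP response element TGACGTCA was in none of the 13 windows (1.79% of all). Its core TGACG, which also lies within the full element, was in 3 of the 13, at 1 window of *Cry1* and 2 of *Per1* (20.8% of all). The windows of *Clock*, *Npas2*, *Nr1d2* and *Dbp* held none of these letters. Both strands were searched, and a match is a description of sequence, not a site shown to be bound.

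The labels were checked first. *Slc22a3* was at 16.95 and 17.68 FPKM in Ctrl and at 9.07 and 9.5 in cKO, a log2 fold change of -0.83 (SE 0.066, adjusted p = 0.000439, limma). FPKM (fragments scaled by transcript length and by the mapped total of the library) is a level per length, so that levels of different genes can be set side by side. Depth, estimated from the FPKM steps of short RNAs, was 17450000 to 18500000 reads per library. The white adipocyte markers summed to 30526 to 31933 FPKM in Ctrl and 23623 to 23970 in cKO, with 6 of 8 lower in cKO. All 7 brown adipocyte markers were higher (1516 and 1792 FPKM summed in Ctrl, 4778 and 4038 in cKO). All 12 tested skeletal muscle markers were lower, from a sum of 2585 and 1739 FPKM in the Ctrl libraries to 21.4 and 20.9 in the cKO libraries. The 5 B cell markers and the 5 T cell markers were all higher (summed FPKM 202 and 227 against 322 and 364 for B cells, 76.3 and 77.9 against 108 and 139 for T cells). Of the macrophage markers, 1 of 5 was higher and 2 were lower (668 to 737 against 751 and 781), and of the endothelial markers 2 of 4 were lower (177 in both against 156 and 160). Keratinocyte markers summed to at most 2.43 FPKM in any library, nearly all of it *Krt10*, with *Krt5*, *Krt1* and *Krt15* at 0 to 0.07 FPKM. Muscle content, adipocyte type and genotype cannot be told apart over these 4 libraries, and their part in the values below was not tested. In bulk tissue, fewer cells of a type and less RNA per cell cannot be told apart.

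Among the clock genes *Nr1d1* rose in cKO, *Npas2* and *Clock* fell, and the other 7 did not pass the test. The activators lay lower in both cKO libraries than in either Ctrl library, by 0.24 to 0.54 on the log2 scale, while of the 6 genes of the opposing arm 4 lay higher and 2 lower. All 10 genes had a mean of at least 1 FPKM and entered the fit, which covered 12658 genes. The count of 3 called genes in 10 is close to the background, since 25.8% of all genes tested passed an adjusted p of 0.05 (limma on log2(FPKM + 1), Benjamini-Hochberg over all genes tested), 12% as higher and 13.8% as lower. For all 10 genes the Ctrl and cKO libraries did not overlap, 4 higher and 6 lower in cKO, where 66.5% of all genes tested had libraries that did not overlap, 31.9% higher and 34.6% lower. The median log2 fold change of the 10 was -0.12, beside -0.006 over all genes tested. A fold change here sets cKO over Ctrl after 1 was added to each FPKM value, and for genes at a few FPKM this makes the change look smaller than it is.

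**Figure D1:**
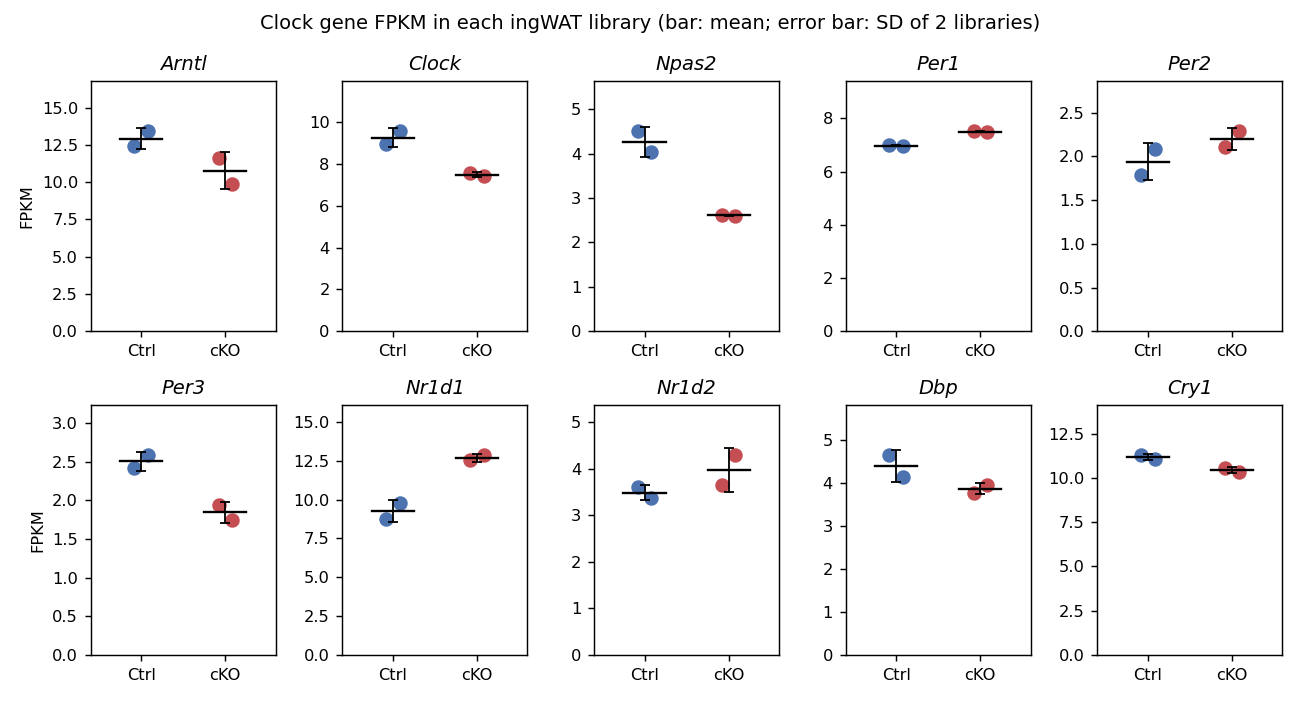
FPKM of each clock gene (one panel per gene, linear axis from 0) in the 2 Ctrl and 2 cKO libraries, each point a library and each horizontal bar the mean of a genotype with its SD as error bar. The points of the genotypes do not overlap in any panel, with *Nr1d1* from 8.74 and 9.78 to 12.5 and 12.9 and *Npas2* from 4.51 and 4.03 to 2.62 and 2.60.

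*Npas2* (chr1:39193702-39363240), which can take the place of Clock as partner of Arntl, was at 4.51 and 4.03 FPKM in Ctrl and at 2.62 and 2.60 in cKO. The cKO values were nearly equal to each other and lay under either Ctrl value. The log2 fold change was -0.54 (SE 0.0935, adjusted p = 0.00642, limma), the largest decrease of the 10 genes. Its libraries held an estimated 192 to 350 reads. Without Ctrl replicate 1 the log2 fold change was -0.48, with an adjusted p of 0.0829.

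*Clock* (chr5:76209868-76305603), the usual partner of Arntl, was at 8.94 and 9.57 FPKM in Ctrl and at 7.56 and 7.40 in cKO. The libraries of the genotypes were apart, with a difference of -0.27 on the log2 scale (SE 0.0723, adjusted p = 0.0317, limma). This call was the least firm of the 3. The adjusted p was 0.0757 with no filter on low values, and with any single library left out it ran from 0.0822 to 0.197. As *Npas2* fell by more than *Clock*, the ratio of their FPKM went from 0.504 and 0.421 in the Ctrl libraries to 0.347 and 0.351 in the cKO libraries.

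*Arntl* (chr7:113178471-113314126), the obligate member of the activating pair and the bearer of the RORE shown above, was at 12.4 and 13.4 FPKM in Ctrl and at 11.6 and 9.90 in cKO. All values in cKO were below those in Ctrl, but the cKO libraries differed from each other by more than the nearest Ctrl and cKO libraries did. The log2 fold change of -0.24 did not pass the test (SE 0.0893, 95% interval -0.46 to -0.03, adjusted p = 0.0877). Without cKO replicate 1 it was -0.35, and without cKO replicate 2 it was -0.14. An antisense gene, *Gm45355*, shares 33 exonic bases with *Arntl* on the opposite strand.

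*Nr1d1* (chr11:98767932-98775377), the Rev-erb alpha repressor that acts on *Arntl* and *Npas2*, was at 8.74 and 9.78 FPKM in Ctrl and at 12.5 and 12.9 in cKO. The difference between genotypes was larger than that between replicates, with a log2 fold change of 0.42 (SE 0.0757, adjusted p = 0.00775, limma). Without Ctrl replicate 1, the library with the lower value, it was 0.35 with an adjusted p of 0.0851. *Nr1d1* shares 263 exonic bases with *Thra*, a thyroid hormone receptor gene on the opposite strand, and the library protocol does not state that strand was kept, so reads from that stretch cannot be told apart. *Thra* itself was at 46.7 and 46.8 FPKM in Ctrl and at 40.8 and 41.3 in cKO, the opposite direction to *Nr1d1*.

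Its close relative *Nr1d2* (chr14:18204056-18239106; Rev-erb beta) was at 3.6 and 3.37 FPKM in Ctrl and at 3.64 and 4.30 in cKO. Its lower cKO value stood next to the higher Ctrl value, and the log2 fold change of 0.15 did not pass the test (95% interval -0.09 to 0.38, adjusted p = 0.331). The ratio of *Nr1d1* to *Nr1d2* was 2.43 and 2.90 in Ctrl and 3.44 and 3.00 in cKO. Whether the relatives differ in their response was not tested.

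The 3 *Per* genes encode the repressors that pair with Cry proteins, and they lay on both sides of 0. *Per1* (chr11:69095108-69109965) was at 6.98 and 6.96 FPKM in Ctrl and at 7.52 and 7.48 in cKO, with replicates that nearly coincided. Its log2 fold change was 0.09 (95% interval -0.07 to 0.26, adjusted p = 0.375). The fit takes part of its estimate of spread from other genes of this level. *Per2* (chr1:91415977-91459351), the lowest of the 10 in Ctrl, was at 1.79 and 2.09 FPKM and at 2.11 and 2.29 in cKO, a log2 fold change of 0.12 (95% interval -0.13 to 0.38, adjusted p = 0.448). *Per3* (chr4:150997018-151044707), whose window holds both D-boxes, was on the other side, at 2.42 and 2.59 FPKM in Ctrl and at 1.94 and 1.75 in cKO. Its log2 fold change was -0.30 (95% interval -0.55 to -0.06, adjusted p = 0.0726, limma). With a variance estimated without a trend on the mean the adjusted p was 0.0362, and after quantile normalization it was 0.167. The ratio of *Per3* to *Per1* was 0.347 and 0.372 in Ctrl and 0.258 and 0.234 in cKO, while that of *Per2* to *Per1* overlapped between genotypes (0.256 and 0.30 against 0.281 and 0.306).

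*Dbp* (chr7:45705100-45710203), the output factor and one of the genes with the widest daily swing in most tissues, was at 4.65 and 4.13 FPKM in Ctrl and at 3.77 and 3.95 in cKO. It lay on the side of the activators, not of *Nr1d1*, with a log2 fold change of -0.15 that did not pass the test (95% interval -0.36 to 0.07, adjusted p = 0.278). It had the fewest reads of the 10, an estimated 118 to 155 per library, for which counting alone gives a coefficient of variation of 9.19% at the lowest. It also shares 539 exonic bases with *Sphk2* on the opposite strand (17.0 and 15.3 FPKM in Ctrl, 17.5 and 16.9 in cKO). *Cry1* (chr10:85131700-85185054), the partner of the Per proteins, was at 11.3 and 11.1 FPKM in Ctrl and at 10.6 and 10.3 in cKO (log2 fold change -0.09, 95% interval -0.24 to 0.07, adjusted p = 0.362). For the 5 genes *Per1*, *Per2*, *Nr1d2*, *Dbp* and *Cry1* the change was under 0.2 on the log2 scale, and every one of their intervals included 0.

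The arms were then set against each other in each library. The mean log2(FPKM + 1) of *Arntl*, *Clock* and *Npas2* was 3.17 and 3.19 in the Ctrl libraries and 2.87 and 2.79 in the cKO libraries. That of *Per1*, *Per2*, *Per3*, *Nr1d1*, *Nr1d2* and *Dbp* was 2.37 and 2.40 in Ctrl and 2.42 and 2.46 in cKO. The activators were thus lower in both cKO libraries, whereas the mean of the opposing arm was higher by less than the activators were lower. That arm did not move as 1. *Nr1d1*, at 0.42, was the only gene of it that passed the test. *Per1*, *Per2* and *Nr1d2* were at 0.09, 0.12 and 0.15, and *Per3* and *Dbp* were at -0.30 and -0.15. The difference between the arms went from 0.80 in both Ctrl libraries to 0.45 and 0.33 in the cKO libraries, a change of -0.41 with a pooled SD of 0.0631 between replicates. It stayed between -0.35 and -0.47 under every alternative tried for it, but most of these could not have reversed it. Both Ctrl libraries lay above both cKO libraries, so leaving out a library could not, and scaling a library shifts both arms nearly alike. No p is given for the change in this difference, because the genes were chosen with earlier results of these data known.

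**Figure D2:**
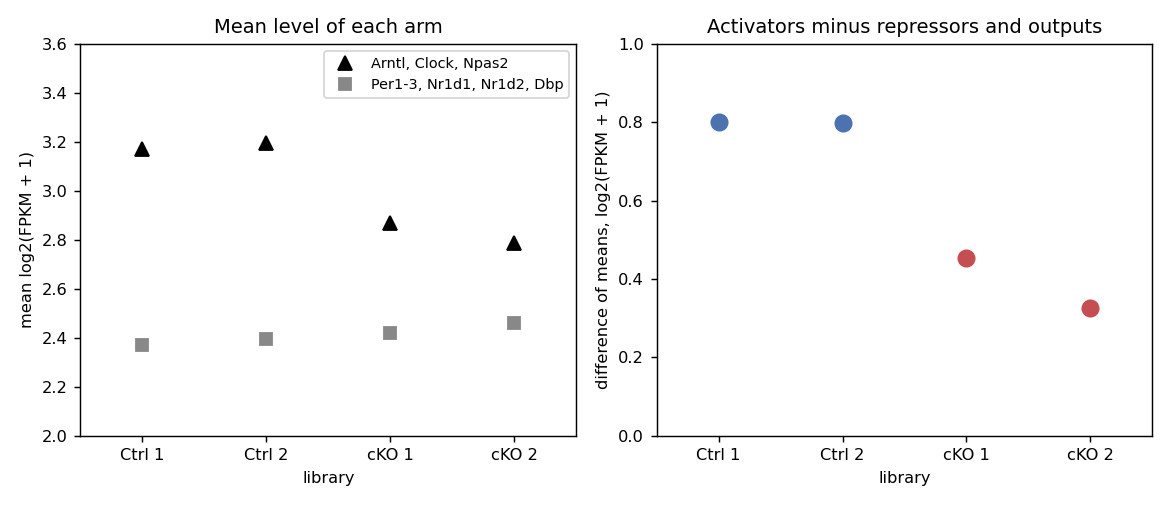
Mean log2(FPKM + 1) per library of the activators (*Arntl*, *Clock*, *Npas2*) and of the repressors and outputs (*Per1*, *Per2*, *Per3*, *Nr1d1*, *Nr1d2*, *Dbp*), with the difference of the arms, each point a library. The activators are at 3.17 and 3.19 in Ctrl and 2.87 and 2.79 in cKO, and the opposing arm is at 2.37 and 2.40 against 2.42 and 2.46.

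Pairs across the arms were also compared as ratios of FPKM. *Nr1d1* to *Arntl* was 0.705 and 0.729 in Ctrl and 1.08 and 1.3 in cKO, so that the FPKM of the repressor was above that of its target in both cKO libraries. The FPKM of *Nr1d1* may include reads of *Thra*, as stated above, and the fall of *Arntl* did not pass the test. *Dbp* to *Arntl* was 0.375 and 0.308 in Ctrl and 0.324 and 0.399 in cKO, and the genotypes overlapped. Of the opposing arm, *Nr1d1* alone passed the test, in the direction opposite to the activators. By fold change *Dbp* and *Per3* lay on the activators' side, but neither passed the test, and no ratio of *Per3* to an activator was taken.

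The order of levels also differed. In Ctrl it ran, from the highest mean, *Arntl* (12.9 ± 0.721 FPKM, SD, n = 2), *Cry1*, *Nr1d1* (9.26 ± 0.735), *Clock*, *Per1*, *Dbp*, *Npas2*, *Nr1d2*, *Per3* and *Per2*, and neighbours overlapped only for *Nr1d1* with *Clock* and *Dbp* with *Npas2*. In cKO it ran *Nr1d1* (12.7 ± 0.255), *Arntl* (10.8 ± 1.22), *Cry1*, *Per1*, *Clock*, *Nr1d2*, *Dbp*, *Npas2*, *Per2* and *Per3*. There *Arntl* and *Cry1*, *Per1* and *Clock*, and *Nr1d2* and *Dbp* overlapped. By FPKM *Nr1d1* thus took the place of *Arntl* at the top, with the same limit from *Thra*, and *Per2* and *Per3* traded places at the bottom.

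The genes whose pattern over the 4 libraries was most like that of *Arntl*, by the Euclidean distance of their log2 deviations from the mean, were *Epm2a* (0.0135), *Fbxw9* (0.0173) and *Ccdc181* (0.0256), and 52 genes lay within 0.1 of it. For *Dbp* they were *Lig3* (0.00551), *0610037L13Rik* (0.0106) and *Agpat5* (0.0133), with 734 genes within 0.1. With 4 libraries many genes share such a pattern.

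In the rest of the loop 2 of the 7 genes tested (of 9 listed) were lower and none was higher (median log2 fold change -0.30), a count close to the background of 25.8% called over all genes tested. *Cry2*, the second cryptochrome, was at 12.8 and 12.1 FPKM in Ctrl and at 7.90 and 7.69 in cKO, a log2 fold change of -0.61 (SE 0.0686, adjusted p = 0.00135, limma). The ratio of *Cry1* to *Cry2* went from 0.886 and 0.912 in Ctrl to 1.34 in both cKO libraries. *Rora*, the activator that competes with Rev-erb proteins at ROREs, was at 4.66 and 4.77 FPKM in Ctrl and at 3.16 and 3.39 in cKO (log2 fold change -0.42, adjusted p = 0.0121). The ratio of *Nr1d1* to *Rora* was 1.88 and 2.05 in Ctrl and 3.96 and 3.80 in cKO, so the repressor and the activator of the RORE moved apart in both cKO libraries. Of the genes that did not pass, *Bhlhe41* was at -0.33 (adjusted p = 0.0722), *Arntl2* at -0.30 (0.127), *Timeless* at -0.03 and *Bhlhe40* at -0.03. *Rorb* (0.04 to 0.22 FPKM) and *Ciart* (0.48 to 0.88 FPKM) were below the filter. With no filter on low values *Cry2* passed (adjusted p = 0.0282) and *Rora* did not (0.053).

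Clock output genes moved little as a list, with a median of -0.01 and 1 of 7 called in each direction, where 12% of all genes tested were called higher and 13.8% lower. *Usp2*, a deubiquitinase with a strong daily rhythm, fell, from 6.30 and 5.65 FPKM in Ctrl to 4.71 and 4.15 in cKO (log2 fold change -0.36, adjusted p = 0.0293, but 0.104 with no filter). *Noct*, the phosphatase nocturnin, rose, from 18.6 and 19.3 FPKM to 23.0 and 22.9 (log2 fold change 0.27, adjusted p = 0.0167). *Nfil3*, which represses at the D-boxes where Dbp activates, was at 17.9 and 21.5 FPKM in Ctrl and at 24.1 and 21.7 in cKO (0.21, adjusted p = 0.161). The relatives of *Dbp* lay close to 0, with *Tef* at -0.10 and *Hlf* at -0.01, as did *Wee1* (-0.05) and *Nampt* (-0.0025). Of the kinases and ubiquitin ligases that set the stability of clock proteins, 0 of 9 tested passed (limma), where 25.8% of all genes tested did. Without adjustment 1 of the 9 had a p under 0.05 (limma), as did 4873 of all 12658 genes tested. *Csnk1e*, a kinase of Per proteins, was at -0.14 (adjusted p = 0.237).

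Genes that respond to signals able to set or shift peripheral clocks make up 3 further lists. The signals themselves were not measured in these libraries. Of the cAMP and immediate early genes, 2 of 10 tested rose and 3 fell, with a median of 0.19, beside 12% and 13.8% of all genes tested. *Fos* fell, from 19.3 and 14.1 FPKM in Ctrl to 2.94 and 4.19 in cKO (log2 fold change -1.96, adjusted p = 0.000601), as did *Fosb* (-1.5, from 2.81 and 2.58 FPKM to 0.23 and 0.39) and *Egr1* (-1.30), while *Atf3* (0.90) and *Sik1* (0.54, adjusted p = 0.0034), the latter a kinase that dampens light resetting of the clock, rose. *Per1*, itself an immediate early gene in many cells, did not pass the test (log2 fold change 0.09, 95% interval -0.07 to 0.26). Of the glucocorticoid-responsive genes 4 of 6 fell and none rose (median -0.44), where 13.8% of all genes tested were lower. These were *Errfi1* (-0.81), *Zbtb16* (-0.58), *Tsc22d3* (-0.49) and *Klf9* (-0.39). Of the 9 temperature-responsive genes 5 rose (median 0.27), where 12% of all genes tested were higher. These were *Hsph1* (0.95), *Dnajb1* (0.62), *Hspa1a* (0.47), *Hspb1* (0.27) and *Hsp90aa1* (0.26). *Cirbp*, a cold-induced RNA-binding protein known to bind clock transcripts, fell, from 27.3 and 25.1 FPKM to 20.1 and 20.9 (log2 fold change -0.34, adjusted p = 0.0105). *Hspa1a* and its near-identical copy *Hspa1b* share reads, so the split between them is uncertain. With no filter on low values *Dnajb1* alone of the 9 passed (adjusted p = 0.0292), and *Atf3* no longer did (0.0516). No list was tested as a list, and the part of these genes in the differences of *Nr1d1*, *Npas2* and *Clock* was not tested.

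**Figure D3:**
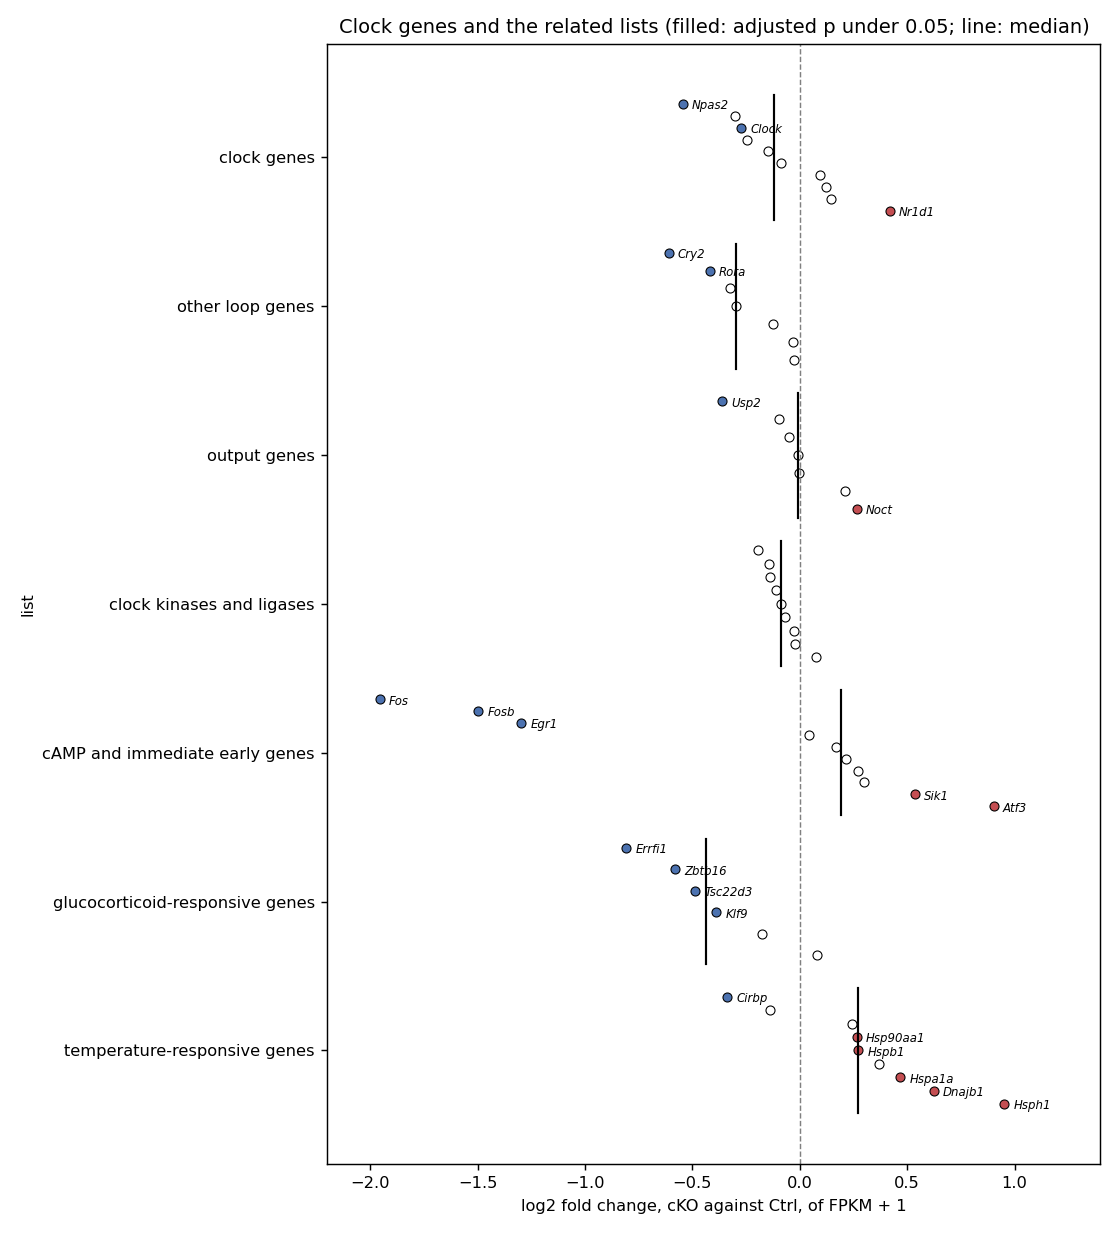
Difference in log2(FPKM + 1) between cKO and Ctrl for the clock genes and 6 related lists, each point a gene, filled where the adjusted p was under 0.05, with the median of each list as a vertical line. The medians are -0.12 for the clock genes, -0.30 for the other loop genes, -0.44 for the glucocorticoid-responsive genes and 0.27 for the temperature-responsive genes.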

How the data were processed

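RNA was measured in 4 libraries, 2 per genotype, from polyadenylated RNA read as 50-base single ends. The deposited values are FPKM, computed by the authors per gene and library. The submitters' processing notes name HISAT2 2.0.4, RSEM 1.2.12 and mm10, and no scaling between libraries is stated. No read counts were used. Depth was estimated from the FPKM steps of 313 short RNAs (400 bases or less, 1 to 6 reads), of which 84.8% to 90.1% came out whole within 0.1, so read numbers are approximate and cover counting error only.

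The 12658 of 19030 genes whose FPKM averaged 1 or more were compared by limma 3.58.1 (R 4.3.3) after the transform log2(FPKM + 1) (eBayes with a trend of variance on mean, two-sided, Benjamini-Hochberg over all genes tested, threshold 0.05), and the fit was tested on simulated data. The members and lists were chosen with earlier results of these data known. Named were all members, the target, all other loop and output genes, the called genes or the 2 largest changes of the other lists, and the 3 nearest patterns to *Arntl* and *Dbp*, apart from list genes whose own values are not reported here. Gene positions and promoters come from RefSeq (GRCm38.p6), and exon overlaps from GENCODE. Python 3.11.15 with pandas 2.3.3 and matplotlib 3.10.9 did the rest. The alternatives were another pseudocount, filter, scaling, variance model or replicate block, and each library left out in turn.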

Additional observations from a re-analysis of the deposited data

How the results depend on the processing

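None of the 105 alternative values for the 10 clock genes changed direction, but most could not have. The filters, the variance model and the replicate block leave the fold change as it is. As the libraries of the genotypes did not overlap for any of the 10, neither another pseudocount nor a left-out library could reverse it. Only another scaling could have done so. In 96 the call was the same as in the main fit, and most of these are genes that were uncalled in both. In 7 a call was lost, for *Clock* in 5 of its 11 alternatives, for *Npas2* in 1 of 10 and for *Nr1d1* in 1 of 11. In 2 a call was gained (*Arntl* without cKO replicate 1, *Per3* without a variance trend). With a library left out, the lone library of that genotype is assumed to vary like the other genotype. The number of clock genes called then ran from 0 to 3, against 3 with all libraries. The lowest count came without Ctrl replicate 1. Over all genes the number called was 3269, and ran from 877 to 2429 with a library left out (877 without Ctrl replicate 1, 1531 without Ctrl replicate 2, 2165 without cKO replicate 1). With no filter on low values it was 1762, and the calls were 1 in place of 2 for the other loop genes, 1 in place of 2 for the output genes and 1 in place of 6 for the temperature-responsive genes. The cause was not tested, beyond the larger number of genes tested (19030). With a mean of at least 5 FPKM, 5 of the 10 clock genes entered and 2 were called, beside 2868 of all 8784 genes that entered. The median of all genes moved between -0.0338 and 0.0184 over these settings.

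With the replicate number as a block, 3 clock genes and 3383 genes in all were called. Deviations of same-numbered libraries correlated at 0.0148 over 12658 genes, so the numbers were not taken as pairs.

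Depth limits the low genes most. At 118 to 350 reads per library, as for *Dbp*, *Npas2*, *Per2*, *Per3* and *Nr1d2*, counting alone gives a coefficient of variation of 5.96% to 9.19% at the lowest library.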
